A study of Mus musculus with 10 samples.

Results

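The 10 genes described here code for the 6 subunits of the replication helicase, Mcm2 to Mcm7, and for 4 further genes of dividing cells, Pcna, Stmn1, Mki67 and Top2a. They are defined by gene symbol, and where several probe sets exist the one brightest on average stands for the gene. They are 10 of the 17097 genes that the array names. The RNA came from blood neutrophils of male C57BL/6 mice, 3 months old, which had 9 days to settle in the animal house and for which the labels name no treatment. In 1 group each of 5 mice gave a sample of its own, called mouse 1 to mouse 5. In the other group the blood of 5 further mice was combined and divided into 5 portions before cells were isolated, giving pool 1 to pool 5, which are technical replicates of 1 sample. Neutrophils were captured with an antibody to the surface protein Ly6G and magnetic columns, and the labels state a purity of 71.5% to 99.5% without assigning a value to any sample. Every mouse and both groups share strain, sex and age, so no comparison of genotypes or treatments exists, and the question is how far mice differ beyond the noise of the procedure.

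Before a cell copies its DNA, the MCM proteins are loaded as a ring of 6 different subunits around the double helix at replication origins, and this ring later unwinds the DNA at the fork. PCNA is the sliding clamp that holds DNA polymerases on their template, stathmin (Stmn1) binds tubulin and takes microtubules apart, Ki-67 (Mki67) coats chromosomes in mitosis and is the standard stain for cycling cells, and topoisomerase II alpha (Top2a) untangles sister DNA. Blood neutrophils have left the cell cycle: their precursors divide in the bone marrow, and the later stages mature without dividing. Transcription of many of these genes is controlled by E2F factors, which bind the E2F element, and by the DREAM complex, which binds the cell cycle homology region (CHR).

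The promoters of 4 members are shown because they carry these elements in different forms: Mcm6 and Mcm5, the subunits whose signals differed most and least between mice 1 to 4, and the proliferation markers Mki67 and Top2a. Mcm5 was under the background level given below on all arrays, so its small spread cannot be read as steady expression. Each is the 250 bases before the start in RefSeq, build GRCm38.p6, on the strand of the gene. Capitals mark the E2F letters TTTCCCGC, TTTCGCGC, TTTGCCGC or TTTGGCGC and the CHR letters TTTGAA or the palindrome TTCGAA, searched on both strands.
Mcm6 (chr1:128359706-128359955, minus strand): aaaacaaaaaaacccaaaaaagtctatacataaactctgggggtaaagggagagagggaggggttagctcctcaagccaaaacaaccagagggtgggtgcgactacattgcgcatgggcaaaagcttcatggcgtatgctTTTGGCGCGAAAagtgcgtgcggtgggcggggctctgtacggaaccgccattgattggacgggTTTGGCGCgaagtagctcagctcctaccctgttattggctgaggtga
Mcm5 (chr8:75109259-75109508, plus strand): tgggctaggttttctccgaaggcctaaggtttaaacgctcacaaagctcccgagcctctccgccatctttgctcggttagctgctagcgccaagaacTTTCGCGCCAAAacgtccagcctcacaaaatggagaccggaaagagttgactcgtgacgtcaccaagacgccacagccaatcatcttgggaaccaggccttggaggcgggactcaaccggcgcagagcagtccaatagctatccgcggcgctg
Mki67 (chr7:135716380-135716629, minus strand): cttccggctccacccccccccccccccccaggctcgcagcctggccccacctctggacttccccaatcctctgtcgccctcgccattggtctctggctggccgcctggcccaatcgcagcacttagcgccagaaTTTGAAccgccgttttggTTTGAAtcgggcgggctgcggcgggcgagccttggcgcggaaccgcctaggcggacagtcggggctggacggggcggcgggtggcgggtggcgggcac
Top2a (chr11:99024190-99024439, minus strand): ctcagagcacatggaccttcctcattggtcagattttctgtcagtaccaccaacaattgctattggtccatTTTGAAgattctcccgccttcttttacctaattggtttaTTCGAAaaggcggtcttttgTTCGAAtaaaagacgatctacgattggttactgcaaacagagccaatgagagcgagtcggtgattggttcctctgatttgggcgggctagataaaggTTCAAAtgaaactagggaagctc
Mcm6 held 3 E2F matches and Mcm5 held 2, and in each gene a pair of matches on opposite strands overlapped. Mki67 held 2 CHR matches and Top2a held 4. The promoter table had entries for 8 of the 10 members, at 9 starts, and none for Mcm4 and Stmn1. E2F letters were found in 3 of these 8 members (Mcm5, Mcm6 and Mcm7) and in 1.86% of all 32851 promoters of this length. CHR letters were found in 4 of 8 (Mcm2, Mcm7, Mki67 and Top2a) and in 17.1% of all promoters. The letters CCAAT, also searched on both strands, were found in 8 of 8 and in 33.9% of all. Members were counted by gene, with a match at any start, and the shares of all promoters by start, so the units differ. Mcm7 did not hold E2F or CHR letters at all of its starts. These matches describe sequence and are not measured sites.

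The array of mouse 5 stood apart from the others in measures over all probe sets and controls. Its 95th percentile of signal was 7.46 on the log2 scale against 8.72 to 9.25 on the other arrays, and the 3′ control of Gapdh read 7.78 there against 11.62 to 12.25 elsewhere. The excess of 3′ over 5′ signal of the Actb controls was 4.57 in mouse 5 and 4.41 in mouse 3, compared with 1.28 to 2.72 for the remaining arrays. Mice 4 and 5 shared identical values for 0.490% of probe sets, against at most 0.0620% for any other pair. The labels name no batch, and the part of these differences in the results was not tested. The limma tests of variance and mean on the filtered genes were repeated leaving out mouse 5, and again leaving out mouse 4 as well. With 5 arrays a group, precision is limited by their number.

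Signal was set against background with 78 olfactory and vomeronasal receptor genes, sensory receptors that blood cells are not known for. The 95th percentile of these genes lay between 5.01 and 5.42 on 9 arrays and at 5.82 in mouse 5. Pcna and Stmn1 were above this level on all 10 arrays, and in mouse 5 Pcna exceeded it by only 0.01. Mcm2 and Mcm4 were above it on 9 arrays, all except mouse 5. Mcm3 exceeded it on 5 arrays, Mcm6 and Mcm7 on 4 each, and Mki67 on 1, that of mouse 3. Mcm5 and Top2a exceeded it on none of the 10. By array, 7 of the 10 genes were above background in mouse 2, mouse 3 and pool 1, 6 in mouse 1, 4 to 5 in mouse 4 and the other pool arrays, and 2 in mouse 5. Over all 17097 genes the share above background was 29.4% in mouse 5 and 44.9% to 52.6% elsewhere. Against the 99th percentile none of the 10 genes was above background on every array, and against the median of all probe sets 5 were.

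**Figure D1:**
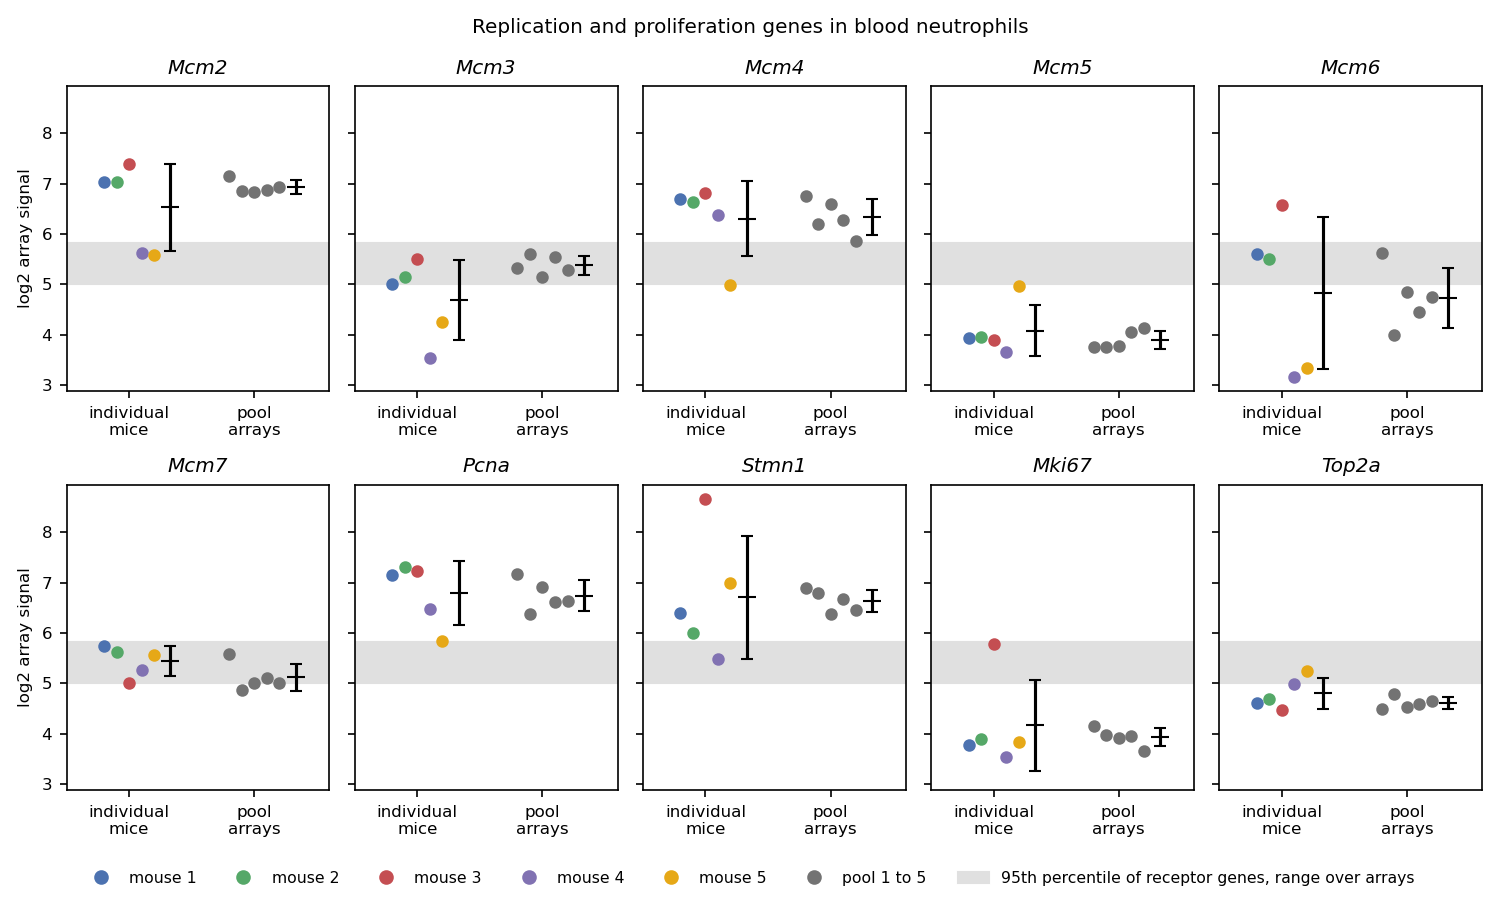
Log2 array signal of each of the 10 genes (vertical axis) on the 5 arrays of individual mice, coloured by mouse, and the 5 pool arrays (grey), with mean and SD as black bars; the grey band spans the 95th percentile of the receptor genes over the arrays, from 5.01 to 5.82. Stmn1 and Mki67 are highest in mouse 3, at 8.66 and 5.77, while Mcm5 and Top2a stay within or below the band on all arrays.

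Among the helicase subunits, Mcm2 (Entrez gene 17216) was above background on all arrays except mouse 5 and reproducible in the pool. It read 7.03, 7.03, 7.40, 5.62 and 5.58 across mice 1 to 5, and the pool portions gave 7.16, 6.86, 6.84, 6.88 and 6.94 in order. Mice 4 and 5 lay below every pool array, and mouse 3 lay above every one. The SD was 0.86 between mice (n = 5) and 0.13 between pool arrays (n = 5). The Mcm2 probe set read here is of a kind that may match several transcripts. The second Mcm2 probe set was above background on 1 array only.

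Mcm6 (Entrez gene 17219) had the widest range of log2 signal of the 10 genes, with its low end under background. It read 5.60, 5.50, 6.58, 3.15 and 3.34 across mice 1 to 5, and the pool portions gave 5.62, 3.99, 4.84, 4.45 and 4.75 in order. Mouse 3 was above the whole pool, mice 4 and 5 were below it and below background, and pool 1, the 1 pool array above background, was above the others. The SD was 1.51 between mice and 0.60 between pool arrays, and the latter was larger than that of 98.5% of the 10734 tested genes.

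Mcm3 (Entrez gene 17215) was near background on most arrays. It read 5.01, 5.14, 5.49, 3.53 and 4.25 across mice 1 to 5, and the pool portions gave 5.32, 5.59, 5.15, 5.54 and 5.28 in order. Mice 1, 2, 4 and 5 read below all 5 pool arrays and mouse 3 within their range.

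Mcm4 (Entrez gene 17217) differed from these in that only mouse 5 stood apart. Mcm4 read 6.70, 6.63, 6.82, 6.37 and 4.99 across mice 1 to 5, with 6.76, 6.19, 6.60, 6.28 and 5.86 for the pool portions. Its SD between mice fell from 0.75 to 0.19 when mouse 5 was left out, below the 0.35 of the pool.

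The remaining subunits were close to or under background. Mcm7 (Entrez gene 17220) read 5.74, 5.61, 5.00, 5.25 and 5.55 across mice 1 to 5, with 5.58, 4.87, 5.00, 5.11 and 5.01 for the pool portions. The groups overlapped, with SDs of 0.30 and 0.28. Mcm5 (Entrez gene 17218) read 3.93, 3.96, 3.88, 3.64 and 4.96 in the mice and 3.76 to 4.13 in the pool. Mouse 5, whose background was also the highest, gave the 1 high value of Mcm5.

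The clamp gene Pcna (Entrez gene 18538) was lowest in mouse 5, as Mcm4 was, with a smaller span, but mouse 4 also lay well below mice 1 to 3. It read 7.15, 7.30, 7.24, 6.47 and 5.83 across mice 1 to 5, and the pool portions gave 7.18, 6.37, 6.91, 6.61 and 6.63 in order. The groups overlapped except for mouse 5, which was below every pool array, and mice 2 and 3, which were above. The SD between mice was 0.63, and 0.39 without mouse 5, against 0.31 in the pool.

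The genes Stmn1 and Mki67 were highest in mouse 3. Stmn1 (Entrez gene 16765) read 6.39, 6.00, 8.66, 5.48 and 6.99 across mice 1 to 5, and the pool portions gave 6.88, 6.80, 6.37, 6.67 and 6.45 in order. Mice 3 and 5 were above every pool array and mice 2 and 4 below every one. Mouse 3 exceeded the next mouse by 1.68 log2 units, the 5 mice spanned 9.11-fold and the 5 pool arrays 1.43-fold. Mki67 (Entrez gene 17345) read 3.77, 3.89, 5.77, 3.54 and 3.83 across mice 1 to 5, and the pool portions gave 4.15, 3.97, 3.90, 3.94 and 3.66 in order. Mouse 3 was 1.88 above the next mouse, and all other arrays were under background. Without mouse 3 the SD of Mki67 between mice was 0.15, against 0.18 between pool arrays. Top2a (Entrez gene 21973), in contrast, was lowest in mouse 3, with 4.60, 4.69, 4.47, 4.98 and 5.24 across mice 1 to 5, and the pool portions gave 4.49, 4.80, 4.52, 4.59 and 4.64 in order.

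Mouse 3 was the highest of the mice for 6 of the 10 genes (Mcm2, Mcm3, Mcm4, Mcm6, Stmn1 and Mki67), and among the 10734 tested genes this held for 28.7%. Mouse 4 was the lowest for 5 of the 10 and mouse 5 for 3, against 25.6% and 46.1% of tested genes. For 6 members the array holds further probe sets, 7 in all. The second Mcm2 probe set was also highest in mouse 3, at 5.11, with the remaining mice at 3.57 to 4.59. It was above background on 1 array only, that of mouse 3, and barely so, at 5.112 against 5.106. The second Stmn1 probe set did not follow the first: it read 4.89 in mouse 3 and 5.55 in mouse 5, and was under background on all 10 arrays. The third Top2a probe set was highest in mouse 3 at 4.25, also under background, and no further probe set of Top2a, Mcm3, Mcm5 or Mcm7 rose above background on any array.

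Between-mouse spread was compared with technical spread through the ratio of the variance between mice to the variance between pool arrays, the latter moderated across genes in limma, with a one-sided test in each direction and a Benjamini-Hochberg threshold of 0.05. A filter on low signal, a mean above 4.58, kept 8 of the 10 genes. Top2a, with a mean of 4.70, was the lowest of those kept, and Mki67 (4.04) and Mcm5 (3.99) were the ones left out. The test called 7 of the 8 more variable between mice, where it called 66.8% of all 10734 tested genes. No member was called less variable between mice, as for all genes (0%, with 58 genes at an unadjusted p under 0.05). The median log2 variance ratio was 3.38 over the 8 and 2.72 over all tested genes.

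The log2 variance ratio was 4.69 for Stmn1 (limma adjusted p = 0.000196), 4.39 for Mcm3 (adjusted p = 0.000328), 3.99 for Mcm6 (adjusted p = 0.000705) and 3.93 for Mcm2 (adjusted p = 0.000788). It was 2.84 for Mcm4 (adjusted p = 0.00869), 2.37 for Pcna (adjusted p = 0.0225) and 2.21 for Top2a (adjusted p = 0.0305). Mcm7 did not pass, at 0.93 (adjusted p = 0.216). Without probe sets that may match several transcripts, Stmn1 was read through its second probe set, which was under background, and its ratio was 2.62 (limma adjusted p = 0.0146). Mcm2 and Mcm7 then fell below the filter and were not tested. The call for Top2a concerns signals that were under background on all arrays. An exact permutation test of the group-centred values, 2-sided, gave p = 0.00794 for Mcm2 and for Mcm3, the smallest p it can give, and 0.0238 for Stmn1. It gave 0.0714 for Mcm6, 0.0794 for Top2a, 0.119 for Pcna, 0.556 for Mcm4 and 0.825 for Mcm7. A Levene-type test in limma, on absolute deviations from the group median, called 0 genes at an adjusted p of 0.05, with 153 genes and 0 members more variable at an unadjusted p under 0.05.

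Without mouse 5, 4 of the 8 genes were more variable between mice, where 20.3% of all tested genes were. These were Stmn1 (SD 1.40, n = 4, limma adjusted p = 0.000407), Mcm3 (SD 0.87, adjusted p = 0.000979), Mcm6 (SD 1.45, adjusted p = 0.00401) and Mcm2 (SD 0.79, adjusted p = 0.00797). The ratio of Mcm4 turned to -1.12 (adjusted p = 0.848), and Pcna (adjusted p = 0.364) and Top2a (adjusted p = 0.280) lost their calls. The exact permutation test on the same arrays gave p = 0.0159 for Mcm2, 0.0476 for Stmn1, 0.0714 for Mcm3 and 0.302 for Mcm6. Without mice 4 and 5, Stmn1 alone passed (SD 1.44, n = 3, adjusted p = 0.00502), where 0.708% of all tested genes did, and its exact permutation p was 0.0536. The adjusted p was then 0.753 for Mcm6 and 0.869 for Mcm3, and the ratios of Mcm2, Mcm4, Pcna and Top2a were below 0.

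Without mouse 3, 6 of the 8 genes passed, where 64.6% of all tested genes did. Stmn1 kept its call (SD 0.64, n = 4, limma adjusted p = 0.0107, exact permutation p = 0.167), while Top2a did not (adjusted p = 0.0565), and the ratio of Mcm7 turned to -0.16. With the filter removed, Mki67 and Mcm5 entered the test and both were more variable between mice (log2 variance ratio 5.26 and 3.58, adjusted p = 9.08e-05 and 0.00183 over 17097 genes). For Mki67 the adjusted p was 0.000283 without mouse 5 and 0.424 without mouse 3, so that its call rested on mouse 3. For Mcm5 it was 0.614 without mouse 5.

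**Figure D2:**
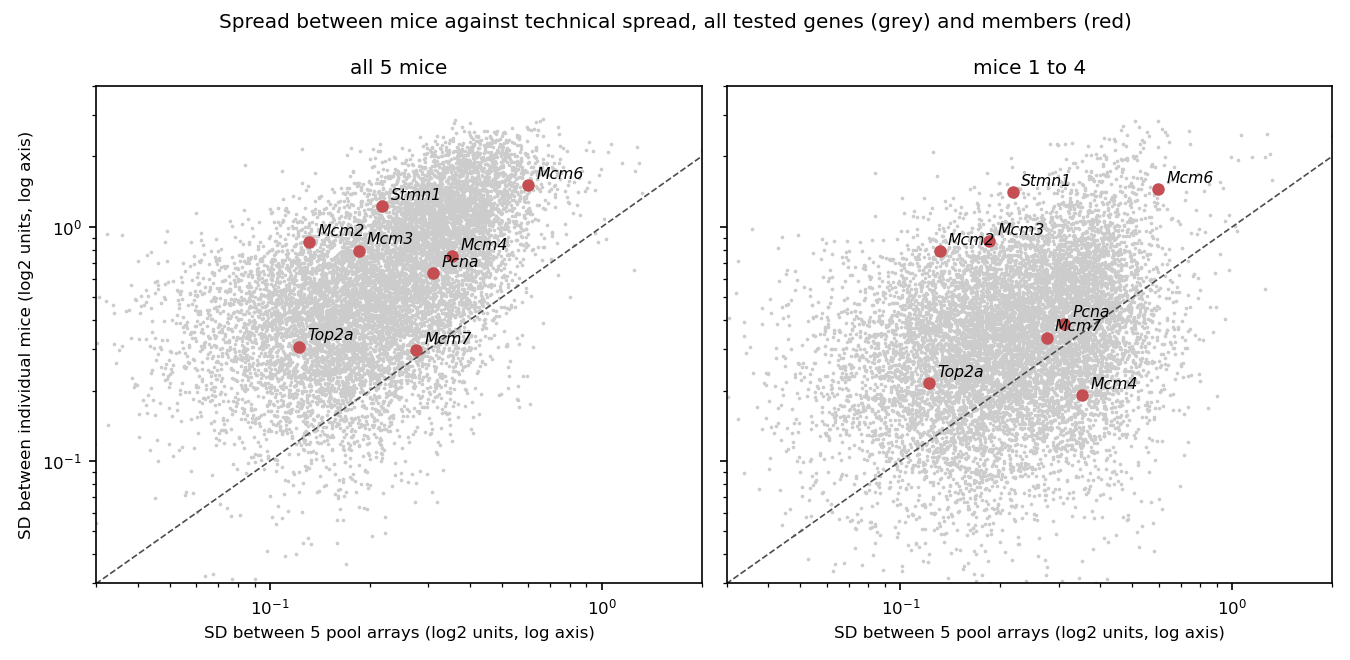
SD between individual mice (vertical) against SD between the 5 pool arrays (horizontal), in log2 units on log axes, for all 10734 tested genes (grey) and the 8 tested members (red), with all 5 mice on the left and mice 1 to 4 on the right; the dashed line marks equal SDs. Mcm4 falls from 0.75 to 0.19 on the vertical axis when mouse 5 is left out, while Stmn1 and Mcm6 stay at 1.40 and 1.45.

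Mean levels did not separate the groups. The difference of mice minus pool, with an error taken from the 5 individual mice because the pool is 1 sample, ran from -0.69 ± 0.40 (SE) for Mcm3 to 0.32 ± 0.21 for Mcm7. None of the 8 members passed (lowest limma adjusted p = 0.999), as for all tested genes, of which 0% were called higher and 0% lower among individual mice (38 and 522 genes had an unadjusted p below 0.05). Without mice 4 and 5, Mcm6 was higher in the mice by 1.16 ± 0.29 (SE, n = 3 mice), with an adjusted p of 0.0948, the lowest of the members.

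Some marker lists of other blood cells, but not all, moved with some of these genes across the mice. The mean level of 12 B cell genes, after centring each gene, was 0.79, 0.80, 1.53, -2.26 and -1.72 in mice 1 to 5 and -0.14 to 0.75 in the pool, with pool 1 the highest. Mcm6, relative to its own mean, stood at the same rank order in the mice except that mouse 1 and mouse 2 changed places, and pool 1 was its highest pool array too. Of the 12 B cell genes 5 were above background on all arrays and 1 on none, and Ebf1, a transcription factor of the B lineage, read 7.43, 7.64, 9.19, 2.99 and 5.84 in the mice. Mouse 3 was the highest mouse for 9 of the 12. The exceptions were Cd79a, Fcer2a and Cr2, named after their values were seen. Cd79a read 8.11, 7.70, 7.41, 6.52 and 7.40 in mice 1 to 5. A list of immature neutrophil genes, not all of which code for granule proteins, was read in the same way. Its mean level was -0.47, -0.67, 1.61, -0.17 and -2.47 in mice 1 to 5 and 0.01 to 0.81 in the pool. Of its 14 genes, 10 were above background on all arrays. Chil3, a chitinase-like protein of this list, reached 12.22 in mouse 3, where the remaining mice lay at 6.15 to 7.48. Mouse 3 was the highest mouse for 9 of the 14 genes, and the other 5, Lcn2, Mmp8, Hp, Olfm4 and Padi4, named after their values were seen, were highest in mouse 4.

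The mean level of primary granule genes and other markers of granulocyte precursors was highest in mouse 3 as well, at 0.48 against -0.28 to 0.01 in the other mice. Mouse 3 was the highest mouse for 6 of these 8 genes, but 0 of 8 were above background on all arrays and 2 on none. Mpo, which codes for myeloperoxidase, reached 6.00 in mouse 3 and 4.13 to 4.90 elsewhere among the mice. Monocyte genes stood at -0.89 and -0.80 in mice 4 and 5 and -0.01 to 0.30 in mice 1 to 3, erythroid genes at -0.84 and -0.59 against 0.12 to 0.60, and platelet genes at -1.88 to -0.28 in the mice against 0.78 to 1.19 in the pool. T cell genes ranged from -0.38 to -0.01 in the mice and NK cell genes from -0.52 to 0.11. Mature neutrophil genes stood at 0.11 to 0.51 in mice 1 to 4 and at -2.02 in mouse 5. Above background on all arrays were 5 of 9 monocyte, 2 of 7 erythroid, 10 of 10 platelet, 3 of 10 T cell, 0 of 8 NK cell and 8 of 9 mature neutrophil genes. From these lists, Fn1 (fibronectin) read 8.41, 7.85, 10.93, 4.65 and 5.44 across the 5 mice, and Alas2, of haem synthesis in red cells, ran from 5.42 in mouse 4 to 9.09 in mouse 3. Mouse 3 was the highest mouse for 2 of 9 monocyte and 3 of 7 erythroid genes. Not all monocyte genes followed Fn1. Ccr2, named after its values were seen, read 6.42, 6.12, 6.30, 7.02 and 7.04 in mice 1 to 5. The platelet receptor gene Gp1bb was lowest in mouse 3, at 8.70 beside 10.30 to 12.15. The T cell adhesion gene Cd2 and the perforin gene Prf1 were highest in mouse 3, at 9.04 and 5.86. Most genes of their lists were not: mouse 3 was the highest mouse for 2 of 10 T cell and 2 of 8 NK cell genes. The decoy receptor gene Il1r2 was highest in mouse 4, at 12.16, and lowest in mouse 5, at 7.38. In such bulk samples fewer cells of a type and less RNA per cell cannot be told apart, and the part of these other cells in the signals of the 10 genes was not tested.

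**Figure D3:**
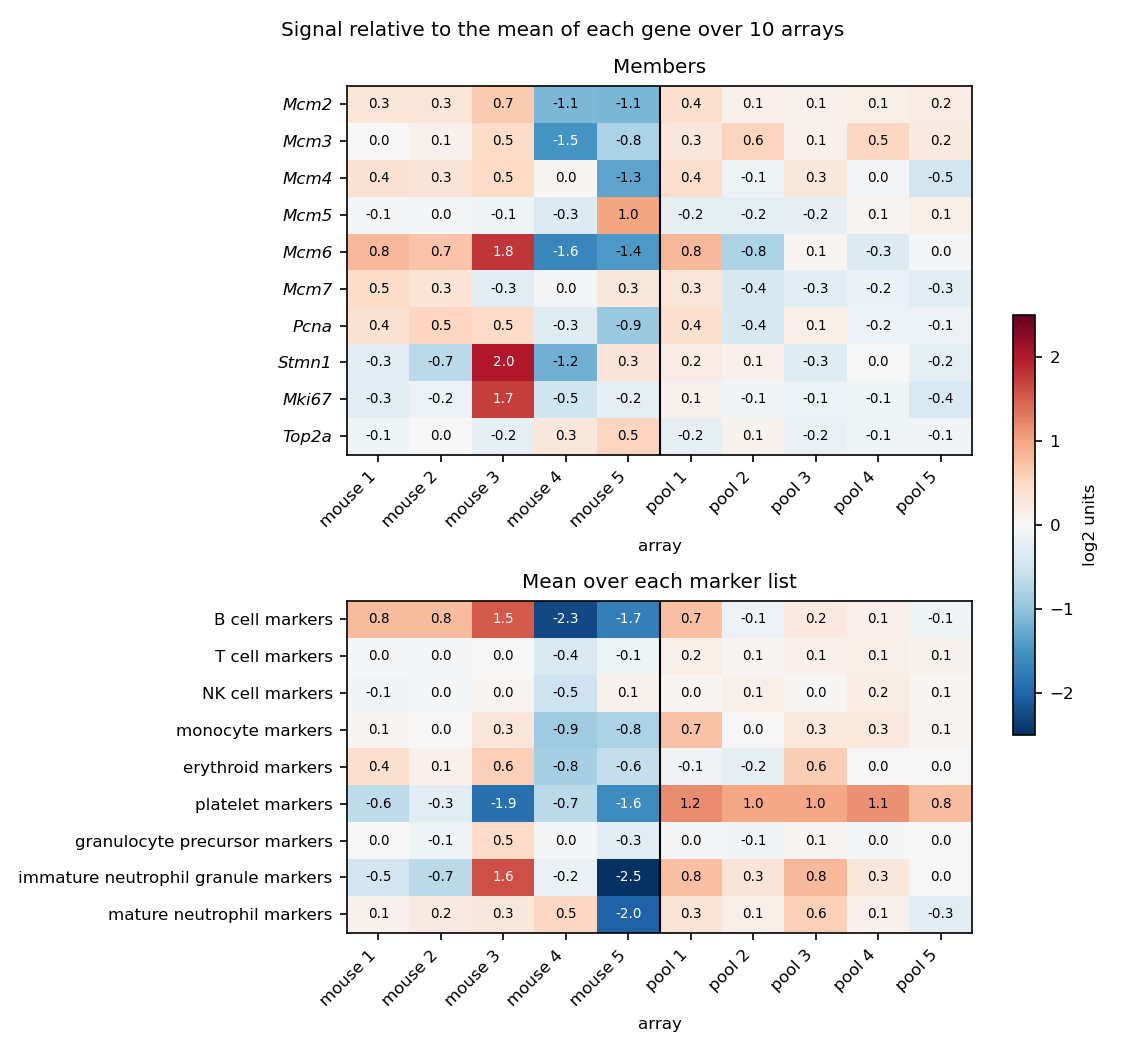
Log2 signal of the 10 genes (top) and mean level of 9 marker lists (bottom) after centring each gene on its own average, by array; red is higher and blue lower. Mouse 3 is high in Mcm6, Stmn1, Mki67, the B cell list (1.53) and the immature neutrophil list (1.61). Mice 4 and 5 are low in Mcm2, Mcm3, Mcm6 and the B cell, monocyte and erythroid lists. Among all tested genes, 71.7% were lowest of the mice in mouse 4 or mouse 5.

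Genes with the nearest profile were taken for the 4 members that spanned over 2 log2 units across the 10 arrays, by the root mean square difference of centred values. They were picked as the smallest differences among tested genes, so they lie below the median gene by selection. Nearest to Mcm6 were Tnfrsf13b, which codes for TACI, a receptor on B cells (0.19 log2 units), Nsmaf (0.19) and Arap2 (0.23), where the median gene was at 1.01. Tnfrsf13b read 6.63, 6.79, 7.55, 4.04 and 4.43 in mice 1 to 5. Nearest to Stmn1 were Kcnn4, a calcium-activated potassium channel (0.24), Rhbdf1 (0.24) and the nucleoside diphosphate kinase gene Nme2 (0.27), with the median gene at 0.88. Nearest to Mki67 were Miga1 (0.14), Rhbdf1 (0.17) and Dag1 (0.19), and Rhbdf1 reached 7.83 in mouse 3, where the remaining mice lay at 5.15 to 6.11. Nearest to Mcm3 were Zfp280d (0.17), Slc16a9 (0.17) and Extl2 (0.18).

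The wider replication and cell cycle machinery was read through 7 lists of 140 genes, of which 133 are on the array and 88 passed the filter. Of these, 65 (73.9%) were more variable between mice and 30 (34.1%) without mouse 5, against 66.8% and 20.3% of all tested genes. Among DNA polymerases and fork factors the counts were 14 of 16 and, without mouse 5, 11 of 16. Rpa1, the large subunit of the protein that coats single-stranded DNA, read 8.95, 8.85, 9.86, 5.58 and 7.14 in mice 1 to 5 and 8.02 to 8.90 in the pool. Pold1, the catalytic subunit of DNA polymerase delta, read 7.08, 7.40, 7.52, 5.30 and 5.12 and 6.30 to 7.15. Mice 4 and 5 were below the pool in both, as they were in Mcm2 and Mcm6. Their limma adjusted p without mouse 5 was 0.000526 and 0.00570, and without mice 4 and 5 0 of the 16 passed.

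Origin licensing and helicase activation genes gave 10 of 16 and 3 of 16 without mouse 5. Cdt1, which loads the MCM ring onto DNA, read 8.62, 8.57, 9.53, 5.96 and 6.78 in mice 1 to 5 and 7.74 to 8.61 in the pool. Its inhibitor geminin, Gmnn, read 5.33, 5.25, 5.78, 3.95 and 3.80 and 4.83 to 5.20, and was above background on 4 arrays. Both were highest in mouse 3 and lowest in mice 4 and 5. Nucleotide supply genes gave 5 of 6 and 0 of 6 without mouse 5, and among its tested genes the ribonucleotide reductase subunits Rrm1 and Rrm2b had the largest SDs between mice 1 to 4, at 0.64 and 0.55. Mitosis genes were the faintest list, with 17 of 27 above background on no array and 10 tested. They gave 7 of 10 and 2 of 10 without mouse 5, and their mean level was -0.07 to 0.16 in the mice and -0.07 to 0.03 in the pool. Smc4, a condensin subunit, read 8.65, 9.45, 9.81, 8.27 and 7.17 in the mice, and Nusap1, a spindle protein, 5.46, 5.17, 5.94, 4.66 and 5.68.

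Cyclins, kinases and E2F regulators gave 11 of 18 and 7 of 18. E2f2, a transcription factor of the E2F family, read 9.57, 9.35, 9.62, 6.32 and 5.74 in mice 1 to 5 and 8.74 to 9.72 in the pool, so mice 4 and 5 again lay below the pool. Myc, a growth regulator, read 4.81, 4.97, 6.56, 2.94 and 3.48 and was above background on 2 arrays. It was the 1 gene of the 88 to pass without mice 4 and 5 (limma adjusted p = 0.0214). Cell cycle inhibitors gave 10 of 12 and 4 of 12. Cdkn2d, which inhibits the kinases CDK4 and CDK6, ran the other way from Stmn1 in mouse 3: it read 6.90 there, 8.81, 8.48 and 9.33 in mice 1, 2 and 4, 4.74 in mouse 5 and 8.47 to 9.59 in the pool. Rbl1, a relative of the retinoblastoma protein, read 6.24, 6.38, 6.78, 4.87 and 4.64. Microtubule genes gave 8 of 10 and 3 of 10, and the alpha tubulin gene Tuba1b read 11.29, 10.96, 12.43, 9.15 and 11.43 in mice 1 to 5, with mouse 3 highest and mouse 4 lowest as for Stmn1. The beta tubulin gene Tubb5 read 8.38, 8.16, 9.45, 7.67 and 7.17. No gene of the 7 lists was less variable between mice, and none differed in mean between mice and pool in limma, with 0% of all tested genes called in either direction.

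**Figure D4:**
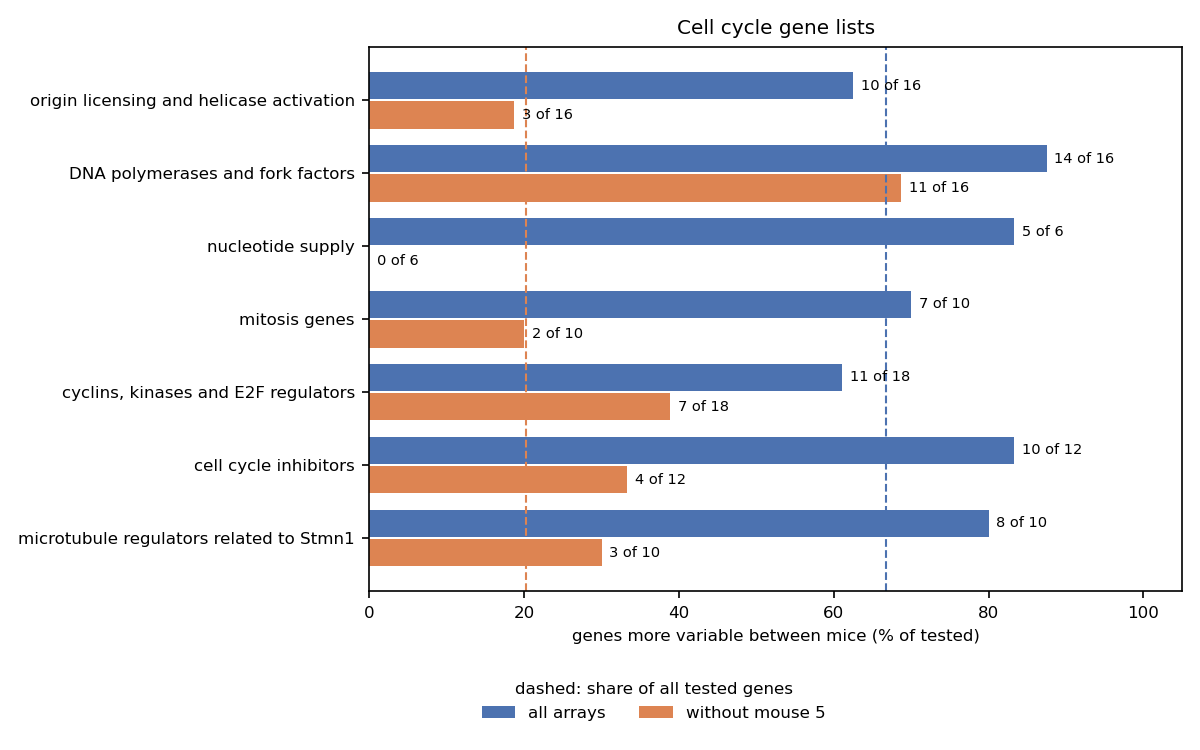
Share of the tested genes of each list that were more variable between mice (horizontal axis, percent), with all arrays (blue) and without mouse 5 (orange); dashed lines give the share of all tested genes, 66.8% and 20.3%. The DNA polymerase and fork list keeps 11 of 16 genes without mouse 5, while nucleotide supply keeps 0 of 6.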

How the data were processed

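Messenger RNA of 10 samples was measured on Affymetrix MG-430 PM arrays, and RNA was amplified in 2 labelling cycles, per the labels' protocols. The authors deposited log2 signals, computed by RMA per the submitters' processing notes; its version and background step are not given in the sources used here. All 10 columns were used.

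Of 45141 probe sets, 28898 carry 1 gene symbol in the platform annotation, 551 several and 15588 none, apart from 104 controls. The probe set with the highest mean stood for each of 17097 genes, and 10734 were tested because their mean exceeded 4.58, the middle value among probe sets. All 10 members matched the gene table of GRCm38.p6 by gene ID. Variances and means were tested in limma 3.58.1 (R 4.3.3), with p-values adjusted over all tested genes, after the procedure had been tested on simulated data. Figures used matplotlib 3.10.9 in Python 3.11.15.

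Besides the members, the text names the 2 tested genes of each pathway list and the 1 gene of each marker list with the largest SD between mice 1 to 4, and the 3 nearest profiles of wide-ranging members. Members and lists were chosen with earlier results of these data known. The replicate numbers of the groups do not pair the samples. Alternatives covered the filter, normalization, probe set choice, left-out arrays and other tests.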

Additional observations from a re-analysis of the deposited data

Results flagged for a closer look

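A sample far from the 4 others of its group was looked for in 38 sets of 5 values, 20 of the members and 18 of the marker lists, by the gap to the nearest value over the range. It was found in 7, of which 3 concern members, and chance alone gives about 1 in 20. The sets were read from the same arrays and are not independent, so this count cannot show an excess over chance. Mcm4 read 4.99 in mouse 5 where 6.37 to 6.82 was the range of the remaining mice. Mcm5 read 4.96 in mouse 5 against 3.64 to 3.96, below background in each case. Mki67 read 5.77 in mouse 3 against 3.54 to 3.89. Among marker lists, the T cell level was -0.38 in mouse 4 where -0.10 to -0.01 was the range of the remaining mice, and the NK cell level was -0.52 in mouse 4 against -0.06 to 0.11. The erythroid level was 0.61 in pool 3 against -0.22 to 0.01 in the other pool arrays, and the mature neutrophil level was -2.02 in mouse 5 where 0.11 to 0.51 was the range of the remaining mice.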

How the results depend on the processing

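The 7165 genes more variable between mice became 10967 without a filter, 4432 with a filter at the 75th percentile, 3760 in a plain F test and 0 in the Levene-type test in limma (153 at an unadjusted p under 0.05). Leaving out 1 array gave 2176 (without mouse 5) to 7594 such genes, and leaving out mice 4 and 5 gave 76. Of the members, 7 of 8 tested were more variable between mice, 9 of 10 without a filter and 4 of the 4 that passed the stricter filter. The plain F test called 3 of 8 and the Levene-type test 0, both by adjusted p. The exact permutation test, run on members only, gave 3 at an unadjusted p under 0.05. With 1 array left out, 4 (without mouse 5) to 8 (without pool 1, which adds Mcm7) were called, and 1 without mice 4 and 5. Pcna lost its call after the arrays were quantile normalized again (limma adjusted p = 0.167), and Top2a after arrays were centred on their median (adjusted p = 0.0825) and without pool 5 (adjusted p = 0.0547). The causes were not tested. Other choices of probe set left some members below the filter, and these have no value there. The log2 variance ratio of Mcm7 ran from -0.16 (without mouse 3) to 2.02 and that of Mcm4 from -1.12 (without mouse 5) to 3.32 with 1 array left out. Without mice 4 and 5 it was below 0 for Mcm2 (-0.30), Mcm4 (-3.15), Pcna (-3.86) and Top2a (-0.78).

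For the means, 0 genes were higher and 0 lower in the mice. Leaving out 1 array gave 0 to 2 and 0 to 153 (without mouse 5), and leaving out mice 4 and 5 gave 116 and 352. An ordinary limma fit of both groups gave 3 and 285. With the replicate number as a block this fit gave 0 and 188; the numbers do not pair the samples, since deviations of same-numbered arrays correlated at -0.26 to 0.50 and only number 1 had its best partner in its own number. No member passed in any of these fits, and differences near 0 changed sign. With 1 array left out the difference ran from -0.17 to 0.29 for Mcm4, -0.33 to 0.52 for Mcm6, -0.066 to 0.30 for Pcna and -0.42 to 0.38 for Stmn1. Without mice 4 and 5, Mcm2, Mcm4 and Top2a gave 0.22, 0.38 and -0.017. The 2 members above background on all arrays became 0 at the 99th percentile, 5 against the median of all probe sets, and 2 to 4 (without mouse 5) with 1 array left out. Signals near background limit what Mcm3, Mcm5, Mcm6, Mcm7, Mki67 and Top2a can show.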
